A study of Rattus norvegicus with 19 samples.

Results

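The cytosolic ribosome is built from ribosomal RNA and ribosomal proteins, and the table of rat spinal cord cultures held 82 ribosomal protein genes among 15597 genes. They were chosen by symbol: Rpl or Rps followed by a number, with an optional letter or a final l for a paralog, plus Rpsa, Rplp0, Rplp1 and Rplp2. No expression value entered the choice. The 82 genes were 31 of the small subunit, 46 of the large subunit and 5 named paralogs, which are Rpl22l1, Rpl36al, Rps27l, Rpl39l and Rpl3l. A gene was tested where it reached 1 FPKM (fragments per kilobase of transcript, scaled to the depth of the library) in at least 4 of the 19 libraries. That held for 80 of the 82 members and for 11887 genes in all. Fau, which encodes a ribosomal protein fused to a ubiquitin-like protein, falls outside the symbol rule and is given beside the members.

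The cultures came from the ventral spinal cord of wild-type Sprague-Dawley rat embryos at embryonic day 14 and were grown in medium with horse serum and chick leg extract. There were 4 groups: untreated control cultures (5 libraries), cultures given 100 µM long-chain polyphosphate, or polyP, for 90 min (5 libraries), and cultures given astrocyte-conditioned medium (ACM) for 90 min. The medium had been conditioned by primary spinal cord astrocytes of neonatal mice carrying human wild-type SOD1 (wtSOD1-ACM, 4 libraries) or SOD1 with the G93A mutation that causes amyotrophic lateral sclerosis (mutSOD1-ACM, 5 libraries). The rat cells themselves carried no SOD1 transgene. The untreated controls received no conditioned medium, so wtSOD1-ACM and mutSOD1-ACM each differ from control by the medium as a whole. Age at treatment is labelled 4 days in vitro, and other fields say 7 days or 7 to 9 days. They state 4 to 5 independent cultures per condition but tie no library to a culture, dish or day.

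Ribosomal proteins are needed in near-equal number, and cells adjust their output together, largely at the step of translation. Their mRNAs typically begin with a run of pyrimidines, the 5′ terminal oligopyrimidine (TOP) tract, through which the growth kinase mTOR sets how many of them are loaded on ribosomes. Ribosomal protein mRNAs are long-lived and abundant in neurons and glia, and growth signals, stress and ribosome defects can each shift them or their use.

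The start of the annotated transcript is shown for 8 members because the TOP tract is the sequence feature best known for this family and because 3 of the 4 pairs below set a canonical gene beside its paralog. Each line holds 15 bases before and 15 bases from the annotated first base of the transcript, read on the gene's strand from RefSeq, build GRCr8. Capitals mark a tract that begins at that first base, defined as C followed by at least 4 further C or T bases.
Rpl22: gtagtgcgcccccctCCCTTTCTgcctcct
Rpl22l1: gctccgtggatatccggttccgagttgcgc
Rps27: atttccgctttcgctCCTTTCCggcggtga
Rps27l: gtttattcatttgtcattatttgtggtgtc
Rpl36a: ccgcctataaacttccgttgctgctctagc
Rpl36al: tccgacttccgctccatccgtccctttcct
Rplp0: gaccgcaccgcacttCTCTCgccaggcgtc
Rpl10a: gaaaccttctgccttCTTTTCCggttcccg

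The windows lie at chr5:168117946-168117975 (plus strand) for Rpl22 and chr2:113683181-113683210 (plus) for Rpl22l1, and at chr2:177964592-177964621 (minus) for Rps27 and chr8:76443643-76443672 (plus) for Rps27l. Those of Rpl36a and Rpl36al lie at chrX:102059434-102059463 (plus) and chr6:93392244-93392273 (minus). Those of Rplp0 and Rpl10a lie at chr12:46718376-46718405 (minus) and chr20:6390518-6390547 (plus). Each window covers the end of the promoter and the first bases of the annotated transcript. Of the 82 members, 63 matched a RefSeq start, and 22 of these 63 (34.9%) had the tract at the annotated first base, against 881 of all 33469 starts in the table (2.63%). With the tract allowed to begin within 10 bases of the start, the counts were 45 of 63 members (71.4%) and 27.8% of all starts. The search was made on the gene's strand only, and a gene without the letters at its annotated start may still use a nearby start that has them.

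The libraries formed 2 sets, each with libraries of every group. Average-linkage clustering on all tested genes put 11 libraries in set 1 (replicates 1 to 3 of control, polyP and mutSOD1-ACM, and 1 and 2 of wtSOD1-ACM) and the remaining 8 in set 2. The sets were found in the data and are not a batch named in the labels. Mbp, which encodes myelin basic protein, ran from 169 to 372 FPKM in set 1 and from 6.54 to 9.62 FPKM in set 2. Replicates of a group correlated at 0.956 to 0.997 over the tested genes, and 11309 to 11723 genes reached 1 FPKM per library. Neuron markers were present in control cultures (summed 1062 to 1707 FPKM over 13 genes), while 7 motor neuron markers summed to 4.03 to 7.98 FPKM. Within-set values stand beside the results.

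In untreated cultures the ribosomal protein genes were among the most abundant mRNAs. Per transcript length, the 80 tested members had a median control level of 537 FPKM, from 79.7 to 1298 FPKM, against a median of 15.3 FPKM over all tested genes. They held 11 of the 50 highest control levels, 43 of the highest 100 and 69 of the highest 200. The highest member was Rplp1, a protein of the stalk that recruits the elongation factors, at 1298 ± 93.2 FPKM (SD, n = 5). Rps2, a protein at the entry of the mRNA channel, followed at 1269 ± 117 FPKM, and Rpl41, the smallest ribosomal protein, at 1069 ± 148 FPKM. The control libraries of these 3 genes overlapped, and no test of their order was made.

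The paralogs lay at the bottom of the range. Rps27l, a p53-inducible copy of Rps27, stood at 79.7 ± 14.0 FPKM in control against 465 ± 59.4 FPKM for Rps27. Rpl22l1 stood at 102 ± 17.0 FPKM against 212 ± 16.8 FPKM for Rpl22, an RNA-binding protein of the large subunit. Rpl36al, at 138 ± 14.7 FPKM, was closer to Rpl36a, at 178 ± 23.7 FPKM. Rpl39l, known from testis, was at 0.25 to 0.68 FPKM and Rpl3l, known from muscle, at 0.05 to 0.13 FPKM in the control libraries, and neither was tested. Ribosomal protein genes have many near-identical processed copies in the genome. How reads shared between such copies, or between a gene and its paralog, were assigned is not given in the sources used here, so the levels of single members are uncertain to that extent.

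The canonical members moved as one block from library to library. The median Pearson correlation between pairs of the 77 canonical members was 0.942 over the 19 libraries, and the lowest was 0.414. These points share libraries, treatments and depth, so the values describe the table and carry no test. The members least like the mean of the others were Rpl3l (-0.18), Rpl39l (0.16), Rpl37a (0.64), Rps27l (0.76) and Rps21 (0.78). The first 2 of these are close to 0 FPKM throughout. Rpl37a is a zinc-binding protein of the large subunit and Rps21 a protein of the small subunit.

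Under polyP, ribosomal protein genes rose together. Of the 80 tested members, 78 were higher and 0 lower than in control at an adjusted p under 0.05 (limma, Benjamini-Hochberg over all tested genes), where 23% of all tested genes were called higher and 8.77% lower. The higher members were 30 of 31 small-subunit genes, 46 of 46 large-subunit genes and 2 of 3 tested paralogs. The median log2 fold change of the members was 0.40, from 0.27 to 0.56, against 0.043 over all tested genes. Their median was also positive with equal summed FPKM, with median-of-ratios scaling and after quantile normalization, where Rplp1 was at -0.04. In these bulk samples, more cells of a type rich in these mRNAs and more of the mRNAs per cell cannot be told apart.

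**Figure D1:**
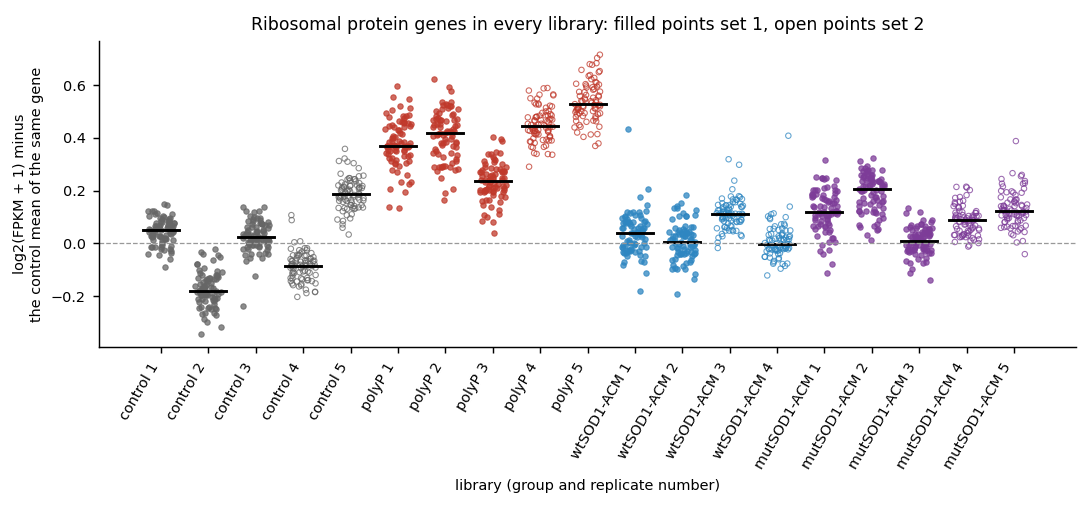
Each point is 1 of the 80 tested ribosomal protein genes in 1 library, as log2(FPKM + 1) minus that gene's mean in the 5 control libraries; black bars are medians, filled points set 1 and open points set 2. The 5 polyP libraries stand above the control libraries, with polyP replicate 3 the lowest of the polyP libraries and control replicate 5 the highest of the controls.

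The shift was visible in the raw sums. Members took up 9.45, 8.67, 9.57, 8.95 and 10.3% of the summed FPKM in control replicates 1 to 5. In polyP replicates 1 to 5 the share was 11.4, 11.5, 10.6, 11.7 and 12.3%. The groups did not overlap, although polyP replicate 3 and control replicate 5 came close. The summed FPKM of the members averaged 43630 ± 4114 in control and 57700 ± 4330 under polyP. Their extra 14070 FPKM made up 36.9% of the 38150 FPKM by which the summed FPKM of all genes was higher. That total is not fixed in FPKM, so the choice of scaling bears on every value here.

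Rps20, a protein of the head of the small subunit, had the largest change. It measured 636, 500.3, 599, 512 and 635 FPKM in control replicates 1 to 5. In polyP replicates 1 to 5 it measured 868, 857, 759, 840 and 905 FPKM. Every polyP library lay above every control library, with polyP replicate 3 again the lowest of its group. The log2 fold change was 0.56 ± 0.074 (SE, limma adjusted p = 0.000119). In wtSOD1-ACM replicates 1 to 4 it read 648, 616, 613 and 565 FPKM, and in mutSOD1-ACM replicates 1 to 5 it read 681, 717, 629, 611 and 619 FPKM, all below the lowest polyP library.

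Rpl36a, a large-subunit protein near the exit site for transfer RNA, measured 192, 149, 195, 155 and 198 FPKM in control. It measured 259, 267, 233, 259 and 283 FPKM under polyP. The groups were well apart, and its log2 fold change was 0.55 ± 0.077 (SE, limma adjusted p = 0.000131). Its paralog Rpl36al read 140, 121, 146, 125 and 157 FPKM in control and 178, 178, 158, 177 and 192 FPKM under polyP. The lowest polyP library was just above the highest control library, and the log2 fold change was 0.36 ± 0.067 (limma adjusted p = 0.000677). Whether the 2 copies differed in their change was not tested.

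Rpl32, a large-subunit protein, measured 673, 553, 677, 584 and 744 FPKM in control and 898, 925, 803, 966 and 1030 FPKM under polyP. No libraries overlapped, and the log2 fold change was 0.52 ± 0.078 (SE, limma adjusted p = 0.000176). Rps6, the small-subunit protein phosphorylated by S6 kinase downstream of mTOR, measured 647, 536, 681, 560 and 684 FPKM in control and 909, 953, 787, 850 and 879 FPKM under polyP. Its groups were apart as well, at a log2 fold change of 0.50 ± 0.076 (limma adjusted p = 0.000203). The others of the 8 largest changes were Rpl41 (0.50), Rps15a (0.50), Rpl4 (0.48), which lines the tunnel through which the new protein leaves, and Rps12 (0.48).

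Rpl3, which lies near the centre that joins amino acids, had a smaller change but the smallest p of the members. Its control libraries sat within 608 to 654 FPKM and its polyP libraries within 760 to 837 FPKM. The spread between control replicates was an SD of 22.8 FPKM around 628 FPKM, narrow for this family. Its log2 fold change was 0.37 ± 0.043 (SE, limma adjusted p = 6.47e-05).

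**Figure D2:**
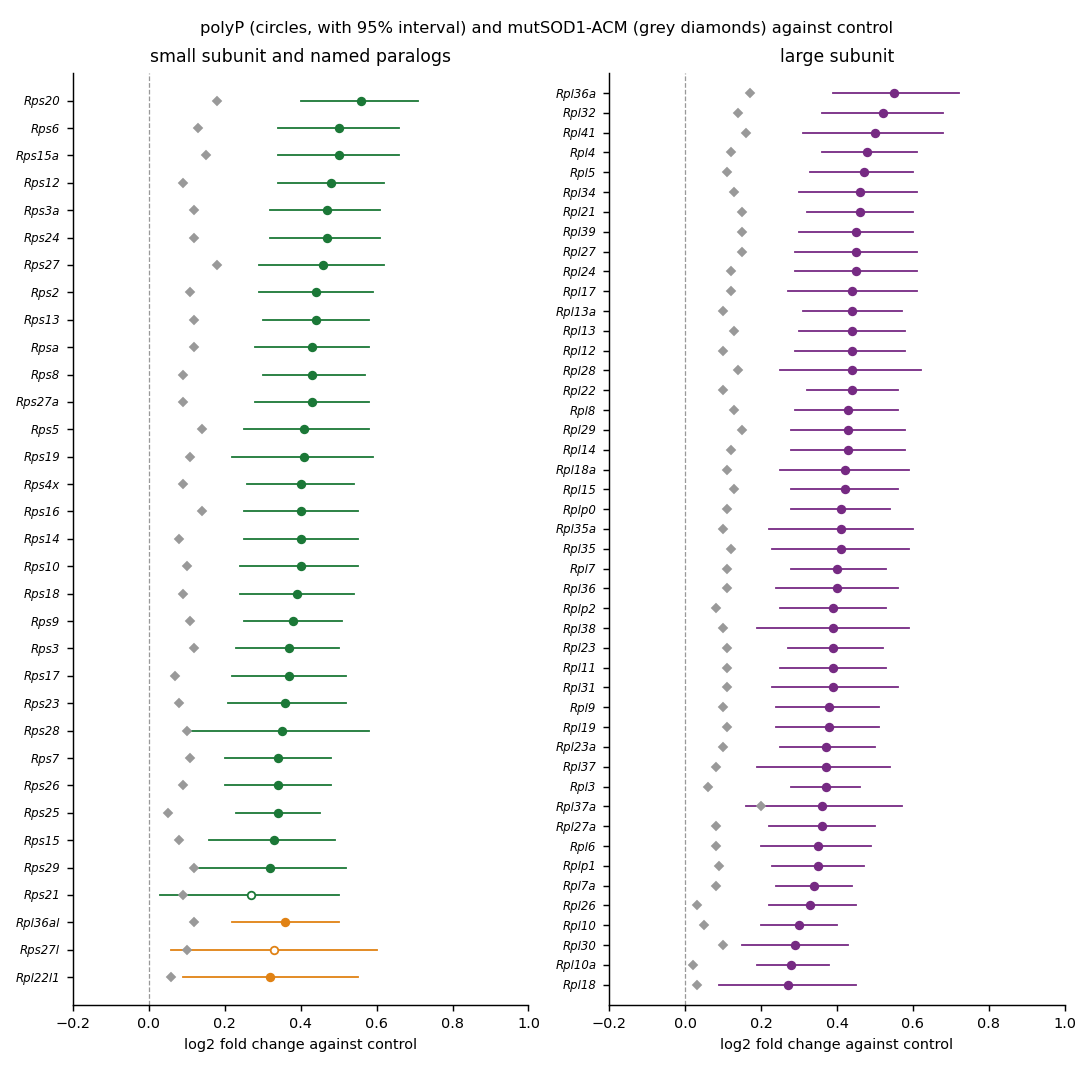
Log2 fold change against control for the tested members reported by name, with circles for polyP (bars are 95% intervals, open circles did not pass the test) and grey diamonds for mutSOD1-ACM; green marks the small subunit, purple the large subunit and orange the paralogs. Every circle lies right of 0, from 0.27 for Rps21 and Rpl18 to 0.56 for Rps20, and every diamond between 0.02 and 0.20.

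Members of each role described here were higher under polyP, and no difference between roles was tested. The stalk proteins rose in log2 terms by 0.41 for Rplp0, 0.35 for Rplp1 (-0.04 after quantile normalization) and 0.39 for Rplp2. Rpl5 and Rpl11, which carry the 5S ribosomal RNA and bind the p53 regulator Mdm2 when ribosome assembly fails, rose by 0.47 and 0.39. Rpl10, which joins the large subunit late in its maturation, rose by 0.30, and Rpl10a, of the mobile stalk at the exit site, by 0.28. Rpsa, also known as the laminin receptor precursor, rose by 0.43, Rps26, at the mRNA exit, by 0.34, and Rps4x, encoded on the X chromosome, by 0.40. Under quantile normalization the calls of Rpl3, Rpl10, Rpl10a, Rpl18, Rpl26, Rpl30, Rplp1, Rplp2, Rps2, Rps4x, Rps26 and Fau were among those lost. Rps27a, whose protein is made as a fusion with ubiquitin, rose by 0.43, and Fau by 0.35 (563 ± 59.9 to 716 ± 71.1 FPKM).

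Each tested paralog had a larger limma adjusted p than its canonical partner, although Rpl36al, given above, passed clearly. Whether a paralog and its partner differed in their change was not tested. Rpl22 measured 216, 194, 210, 204 and 239 FPKM in control and 296, 285, 259, 296 and 302 FPKM under polyP, without overlap (log2 fold change 0.44 ± 0.058, SE, limma adjusted p = 0.000119). Rpl22l1 measured 96.6, 79.3, 100.2, 107 and 126 FPKM in control and 124, 122, 107, 134 and 146 FPKM under polyP. Its groups overlapped, with control replicate 5 above 3 of the polyP libraries. Its log2 fold change of 0.32 ± 0.109 passed narrowly (limma adjusted p = 0.0335), and the call was lost on leaving out any of 7 libraries in turn: control replicates 1, 2 and 3 and polyP replicates 1, 2, 4 and 5. Without control replicate 2 the adjusted p was 0.0996, the highest of these, and with equal summed FPKM it was 0.134.

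Rps27 and Rps27l form the other pair. Rps27 measured 458, 388, 469, 454 and 555 FPKM in control and 637, 659, 549.85, 631 and 702 FPKM under polyP, with overlap only between control replicate 5 and polyP replicate 3. Its log2 fold change was 0.46 ± 0.079 (SE, limma adjusted p = 0.000397). Rps27l measured 76.7, 68.9, 66.6, 84.9 and 101.26 FPKM in control and 95.3, 96.5, 83.4, 105 and 121 FPKM under polyP. Control replicate 5 lay above 3 polyP libraries, and the log2 fold change of 0.33 ± 0.127 did not pass (limma adjusted p = 0.0543). Within set 1 it was 0.37 and within set 2 0.28, and both passed there (adjusted p = 0.0261 and 0.0334).

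The second member that did not pass was Rps21. It measured 486, 394, 466, 482.5 and 597 FPKM in control and 529, 571, 494, 619 and 700.1 FPKM under polyP. Control replicate 5 and polyP replicates 4 and 5, all of set 2, were the highest of their groups. The log2 fold change was 0.27 ± 0.112 (SE, limma adjusted p = 0.0798), and with the library set as a term in the fit the same change had an adjusted p of 0.00504.

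**Figure D3:**
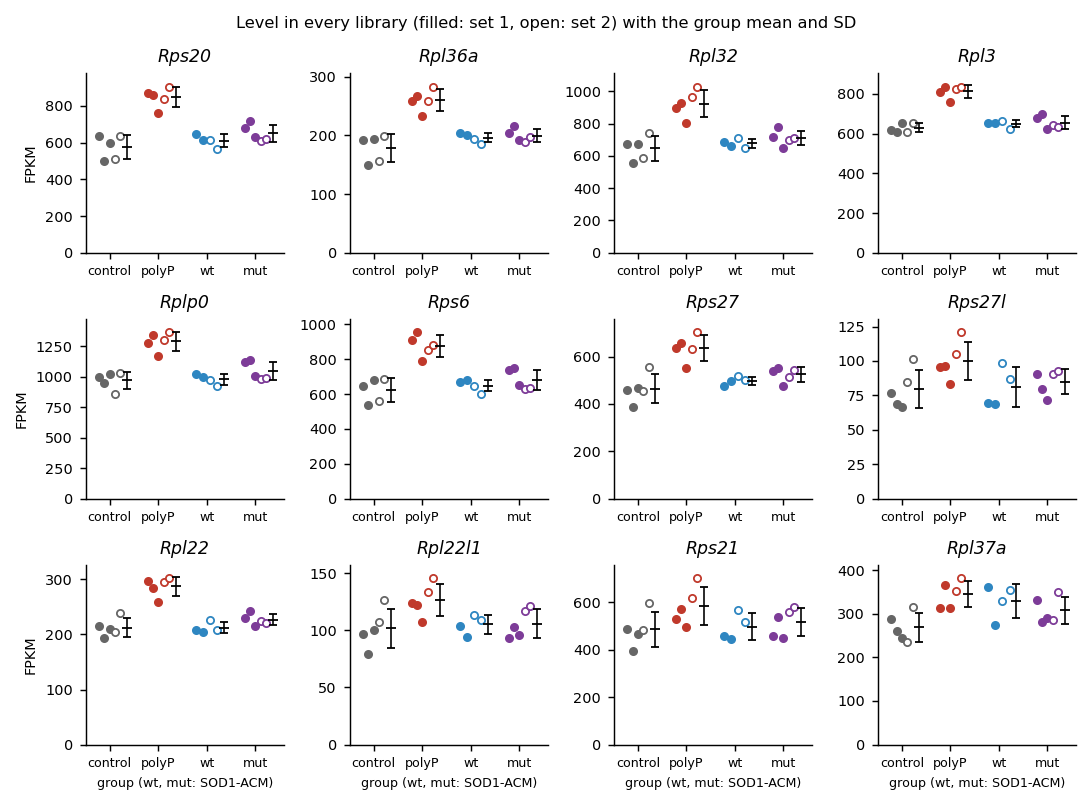
FPKM in every library for 12 members, with filled points for set 1, open points for set 2 and the mean and SD of each group at its right; wt and mut stand for wtSOD1-ACM and mutSOD1-ACM. Rps20, Rpl36a, Rpl32, Rpl3, Rplp0, Rps6 and Rpl22 have all polyP libraries above all control libraries, while Rps27, Rps27l, Rpl22l1, Rps21 and Rpl37a overlap.

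Counted without a model, 54 of the 80 members had every polyP library above every control library, and 0 had every one below. Over all tested genes 14.6% had every polyP library above and 4.31% every one below. Each set of libraries was also fitted alone. In set 1 (3 libraries against 3) 77 members were higher, with a median log2 fold change of 0.36, where 15.3% of all genes were called higher. In set 2 (2 against 2) 80 were higher, with a median of 0.45 and 28.1% of all genes called higher. A term for the difference of the polyP effect between sets called 0 members in limma, and 0 members had an unadjusted p under 0.05. That term called 0 of all 11887 tested genes as well. With so few libraries per set, a missed threshold does not show that the sets agree.

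Scaling between libraries moved the size of the change. With every library brought to the same summed FPKM, the median over all genes moved from 0.043 to -0.058 and the members' median from 0.40 to 0.29. Relative to the median of all genes the members stood 0.36 higher as deposited and 0.35 higher after that scaling. Equal summed FPKM left 74 members higher, and the split of all genes called turned from 23% higher and 8.77% lower to 11.8% higher and 14% lower. Median-of-ratios scaling gave 77 members higher, a median of 0.34, and 16.1% of all genes higher and 12.4% lower. Quantile normalization, which gives each library the same distribution of values, left 46 members higher with a median of 0.13, where 19.5% of all genes were called higher. Relative to the median of all genes the members then stood only 0.09 higher.

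Other quantities moved with polyP as well. Markers of dividing cells summed to 268 to 330.1 FPKM in control and 382 to 450.0 FPKM under polyP, with 5 of 7 genes called higher. Over all tested genes 23% were called higher and 8.77% lower. Among the 7, Pcna averaged 112 FPKM in control and 174 FPKM under polyP, while Mki67 averaged 17.7 and 17.9 FPKM. Markers of astrocytes and radial glia summed to 2995 to 3482 FPKM in control and 4145 to 4475 FPKM under polyP, with 3 of 10 called higher and 0 lower. The 3 were Fabp7 (983.5 to 1899 FPKM, log2 fold change 0.96), Sox9 (0.33) and Vim (0.15, but -0.02 after quantile normalization). The list's median log2 fold change was 0.03, with 6 of 10 positive, and Nes (-0.21), Slc1a3 (-0.18), Gfap (-0.18) and Slc1a2 (-0.12) did not pass. Endothelial markers summed to 11.6 to 17.2 FPKM against 7.59 to 11.4 FPKM, with 1 of the 2 tested called lower. Microglial markers, with 0 of 10 called, overlapped at 47.8 to 564 FPKM in control and 52.8 to 175 FPKM under polyP, although their median log2 fold change was -0.72. Of 13 neuron markers 0 were called higher and 2 lower, and of 10 oligodendrocyte markers 1 higher and 1 lower. Of 8 tested fibroblast and mural cell markers 1 was called higher and 2 lower. No marker of these lists was at 0 in all libraries. The part of these shifts in the result was not tested.

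Control replicate 2 had the lowest members' share of all 19 libraries and also the highest level of the microglial gene Cx3cr1, at 32.8 FPKM against 4.16 to 17.7 FPKM in the other control libraries. PolyP replicate 3, the lowest polyP library, had the highest Cx3cr1 of its group at 11.2 FPKM. In set 2, with 2 libraries against 2, Cx3cr1 lay between 4.16 and 4.27 FPKM in control and between 2.95 and 3.59 FPKM under polyP, and the members' median change was 0.45. Without control replicate 2, 74 of the 80 members were higher and their median was 0.35. The part of microglial content in the members' change was not tested.

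Members did not all move by the same amount. Subtracting the mean of the canonical members from each library, a scaling chosen after the values were seen, left 12 of the 80 members called between polyP and control (limma). In that scaling 6 members were higher and 6 lower, where 0.303% of all tested genes were called higher and 64.5% lower. Rps20 and Rpl36a stood 0.15 above the members' mean change on the log2 scale (adjusted p = 0.00608 and 0.00841), and Rpl32 0.11 above it (adjusted p = 0.00161). Rpl41 and Rps15a were 0.09 and Rps12 0.08 above it. Among those on the other side, Rpl18 was -0.14, Rpl10a -0.12, Rpl10 and Rpl30 -0.11 and Rpl26 -0.07 from the mean.

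**Figure D4:**
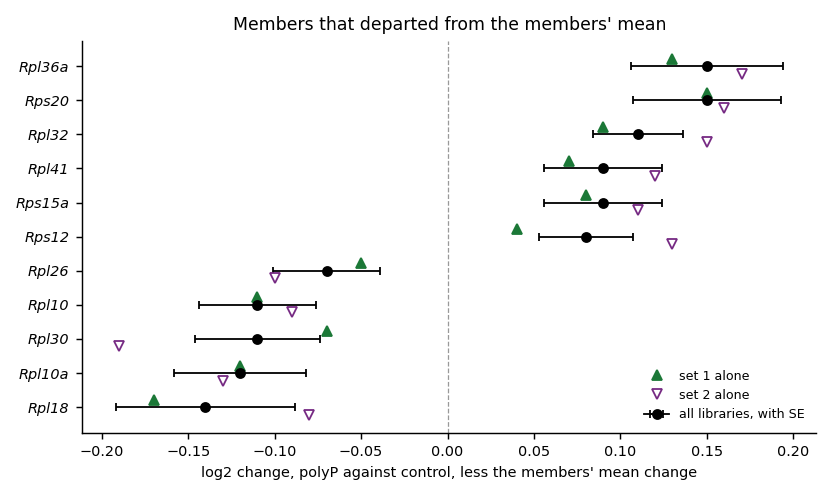
Log2 change between polyP and control less the mean change of the canonical members, for members called in that scaling; circles with SE use all libraries, triangles set 1 alone and open triangles set 2 alone. Each member plotted keeps its side of 0 in both sets, and the size differs most for Rpl30 (-0.07 in set 1 and -0.19 in set 2). The members were picked by their call in these same libraries, so the sets give no separate support.

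Rpl10a shows the low end in plain levels. It measured 443, 435, 453, 434 and 496 FPKM in control and 528, 549, 517, 573 and 584 FPKM under polyP. The groups did not overlap, and its log2 fold change was 0.28 ± 0.045 (SE, limma adjusted p = 0.000234). Rpl18 measured 518, 451, 491, 497 and 603 FPKM in control and 559.85, 571, 549.92, 681 and 730.3 FPKM under polyP, with control replicate 5 above 3 of the polyP libraries. Its log2 fold change was 0.27 ± 0.085 (limma adjusted p = 0.0224), a call lost with equal summed FPKM (adjusted p = 0.121), in the fit of the 2 groups alone (adjusted p = 0.0752), in set 1 alone (adjusted p = 0.0562) and on leaving out control replicate 2 or polyP replicate 4 or 5 (adjusted p up to 0.0666). As shown with the sequences, Rpl10a has a TOP tract that begins at its annotated first base. In Rpl36a, at the high end, letters that meet the same definition begin within 10 bases before that base. These genes were picked by their change, so they do not tie the tract to its size.

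The members were also split by the tract at their annotated first base. Among members with a matched start, 22 of 22 with the tract at the annotated first base were higher under polyP, at a median log2 fold change of 0.40. Of the 39 tested without it 37 were higher, also at a median of 0.40. Among genes that are not members, 52 of 253 with the tract (20.6%) and 23.6% of the 9272 without it were called higher. The tract is defined here by letters at the annotated first base, so members with it only nearby count as without it. No difference between these groups was tested.

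Astrocyte-conditioned medium gave no called change in the members. In wtSOD1-ACM against control, limma called 0 of 80 members in either direction, with 1 at an unadjusted p under 0.05, where 0.564% of all genes were called higher and 0.0673% lower. The members' median log2 fold change was 0.04, from -0.03 to 0.29. The member at the top was Rpl37a, which read 289, 260.03, 245, 234 and 316 FPKM in control and 361, 274, 329 and 355 FPKM in wtSOD1-ACM. Replicate 2 of wtSOD1-ACM lay inside the control range and the other 3 above it. Its log2 fold change of 0.29 ± 0.102 (SE) did not pass (limma adjusted p = 0.606).

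In mutSOD1-ACM against control, limma again called 0 members in either direction, with 5 at an unadjusted p under 0.05, where 0.0168% of all genes were called higher and 0% lower. The members' values were all positive, from 0.02 to 0.20 with a median of 0.11, and the lowest adjusted p among them was 0.966. The 5 were Rps20 (0.18, 95% interval 0.03 to 0.34), Rps27 (0.18), Rpl36a (0.17), Rpl21 (0.15) and Rpl39 (0.15), which lines the exit tunnel with Rpl4. Because the members move together across libraries, 80 values of 1 sign are not 80 independent observations. The members' share of the summed FPKM was 9.87, 10.2, 9.38, 9.69 and 9.96% in mutSOD1-ACM replicates 1 to 5, inside the control range of 8.67 to 10.3%.

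Between the 2 conditioned media, limma called 0 members, with 0 at an unadjusted p under 0.05, where 0.00841% of all genes were called higher and 0.463% lower with mutSOD1-ACM. The members' median log2 difference was 0.07, from -0.10 for Rpl37a to 0.14 for Rpl29. The 95% interval for Rpl29 ran from -0.02 to 0.31. Rpl29 read 575, 588, 624 and 573 FPKM in wtSOD1-ACM and 695, 715, 586, 632 and 640.2 FPKM in mutSOD1-ACM, with replicate 3 of mutSOD1-ACM among the wtSOD1-ACM values. A missed threshold does not show that the media act alike.

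PolyP against mutSOD1-ACM compared the 2 treatments directly and shares the polyP libraries with the comparison above. Of the 80 members 73 were higher with polyP and 0 lower (limma), where 14.8% of all tested genes were called higher and 4.90% lower. The median log2 difference was 0.30, from 0.17 to 0.39, against 0.04 over all genes. Rps12 led at 0.39 ± 0.065 (SE, adjusted p = 0.00132), with 834, 845, 756, 930 and 962 FPKM under polyP against 663, 677, 633, 645 and 669 FPKM with mutSOD1-ACM. All polyP libraries were above all mutSOD1-ACM libraries. Rpl32, Rpl36a and Rps20 followed at 0.38 each, then Rpl4 and Rps6 at 0.36 each.

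In 46 members every polyP library lay above every mutSOD1-ACM library, as in 12.3% of all tested genes. The 7 members that did not pass were Rpl18 (0.24), Rps28 (0.25), Rpl22l1 (0.25), Rps27l (0.23), Rps29 (0.20), Rpl37a (0.17) and Rps21 (0.17). With the replicate number as a block in the limma fit of all 4 groups, Rpl18 (adjusted p = 0.0105), Rps28 (adjusted p = 0.0143), Rpl22l1 (adjusted p = 0.0146) and Rps29 (adjusted p = 0.0268) passed. In that fit 21.6% of all tested genes were called higher and 10.1% lower. The block also put wtSOD1-ACM replicate 3, of set 2, with replicate 3 of the other groups, of set 1. The call depended on the library set: set 1 alone gave 0 members called, with 64 at an unadjusted p under 0.05 and a median of 0.23, where 0.505% of all genes were called higher. Set 2 alone gave 76 members called and a median of 0.39, where 22.7% were. The difference between sets was not called for any member by limma, with 1 at an unadjusted p under 0.05, and it was called for 0 of all tested genes. Quantile normalization left 25 members higher, where 9.38% of all tested genes were called higher. The members' median was then 0.11, which was 0.08 above that of all genes, and Rplp1 was at -0.06.

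Genes that work with the ribosome were counted from lists that were chosen with earlier results known. Among 20 tested translation genes with TOP mRNAs or related roles, 18 were higher and 0 lower under polyP against control. The shares over all tested genes were 23% higher and 8.77% lower. The median log2 fold change of the 20 genes was 0.35. Npm1, which encodes the nucleolar chaperone nucleophosmin, rose from 365 ± 30.7 to 524 ± 28.03 FPKM (0.52). Eef1a1, the elongation factor that delivers transfer RNA, rose from 3055 ± 288 to 3863 ± 226 FPKM (0.34). Tpt1 rose by 0.43, Naca and Btf3, which together guard new chains at the exit tunnel, by 0.46 and 0.45, and Rack1, a scaffold protein of the small subunit, by 0.30. The calls of Eef1a1 and Rack1 were lost under quantile normalization. Eef2, the translocation factor, rose by 0.14 (adjusted p = 0.00555), but it was -0.15 after quantile normalization (adjusted p = 0.00249). Its call was lost with equal summed FPKM (0.02, adjusted p = 0.495), with median-of-ratios scaling (adjusted p = 0.125), in the fit of the 2 groups alone (adjusted p = 0.0569) and in each library set alone.

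Making ribosomes also needs assembly factors and ribosomal RNA. Of 55 assembly genes 22 were higher and 0 lower, where 23% of all tested genes were called higher and 8.77% lower. Their median log2 fold change was 0.15. Fbl, the methyltransferase of the box C/D particles, rose from 64.1 ± 5.15 to 90.5 ± 4.29 FPKM (0.49), and Gar1 of the box H/ACA particles rose from 13.0 ± 1.59 to 18.1 ± 1.51 FPKM (0.46). Pno1 (0.48) and Ebna1bp2 (0.42) act in assembly of the small and the large subunit. Of 15 genes of ribosomal RNA synthesis 4 were higher and 0 lower, at a median of 0.05, a share near the 23% of all genes.

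Of 25 tested growth regulators 9 were higher and 2 lower, where 23% of all tested genes were called higher and 8.77% lower, so that the count of lower genes was near the background. Ddit4, an inhibitor of mTOR signalling, rose from 28.8 ± 4.38 to 48.2 ± 4.38 FPKM (log2 fold change 0.73), Eif4ebp1, the translation repressor that mTOR inactivates, rose by 0.43 and Eif4e, its target, by 0.28. Mycl rose by 0.46. Mtor itself fell by 0.13 and Myc fell by 0.24 on the log2 scale, with adjusted p of 0.0247 and 0.0457 in limma. The call for Mtor was lost on leaving out control replicate 2 or 3 or polyP replicate 4 or 5, and that for Myc on leaving out control replicate 2, 3, 4 or 5 or polyP replicate 1, 2, 4 or 5, with adjusted p up to 0.0646 and 0.121. Both calls were also lost in the fit of the 2 groups alone (adjusted p = 0.102 and 0.105) and in set 1 alone, that for Mtor in set 2 alone, and that for Myc without the filter on low values (adjusted p = 0.0594). Among 18 p53 genes 7 were higher and 1 lower, to be read against the same 23% and 8.77%. Mdm2, to which Rpl5 and Rpl11 bind, was at -0.06 (adjusted p = 0.78).

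Other large complexes also held many higher genes. Proteasome subunits had 34 of 38 higher and 0 lower, where 23% of all tested genes were called higher and 8.77% lower. Their median log2 fold change was 0.31. Mitochondrial ribosomal protein genes had 49 of 74 higher and 0 lower, also at 0.31, and respiratory chain genes 40 of 74 and 0 at 0.23. In these counts the cytosolic members had the highest median, and no difference between lists was tested.

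**Figure D5:**
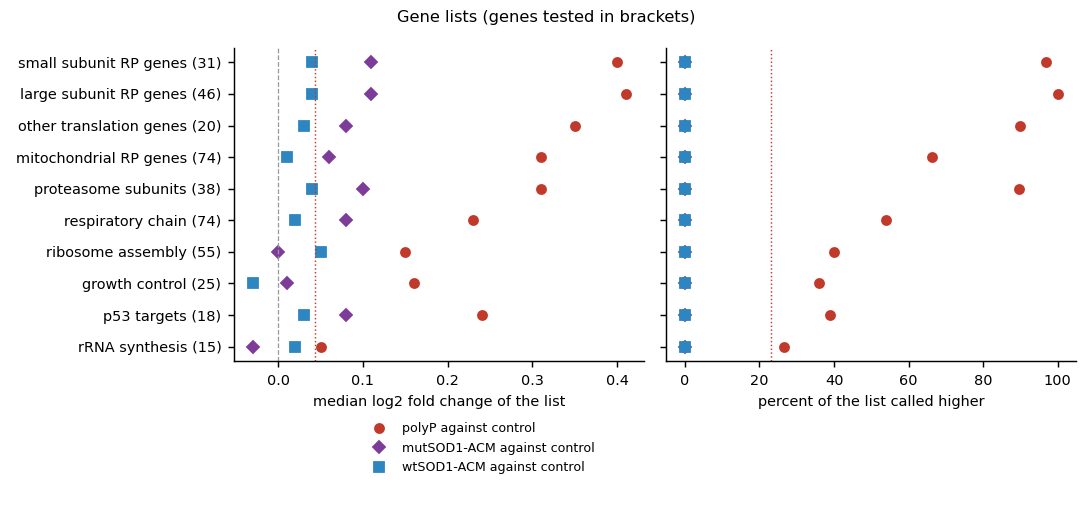
Left, median log2 fold change of each gene list against control; right, percent of the list called higher; circles polyP, diamonds mutSOD1-ACM and squares wtSOD1-ACM, with the number of genes tested in brackets. Dotted lines mark the median (0.043) and the percent called higher (23) over all tested genes in polyP against control, and both conditioned media stay at 0 percent for every list shown.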

How the data were processed

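RNA from 19 libraries was sequenced after poly(A) selection, strand-specifically per the labels. The authors deposited 1 table of FPKM values per gene; HISAT and build rn6 are named in the submitters' processing notes, and for the counting tool, its strand setting and multi-mapping reads nothing is stated there. Total read counts are not used here. In 126 rarely detected genes, 92.6% of 797 values were whole multiples (within 0.1) of a smallest step, which put relative depth at 0.786 to 1.50 times that of the median library. FPKM values are per length, so levels may be compared between genes. For single members this is limited, because the assignment of reads shared between copies is not stated. Transcript lengths were not used here, and a dependence of the changes on length was not tested.

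Groups came from the labels. All 4 groups entered one limma fit (version 3.58.1, R 4.3.3, trend and robust options) on log2(FPKM + 1) with 5 contrasts, over genes at 1 FPKM or more in at least 4 libraries, with Benjamini-Hochberg adjustment over 11887 genes and a call under 0.05. Fold changes on this scale understate low genes. P-values measure the spread between these libraries. The 3 comparisons with control share the control libraries, and other pairs share treated libraries. The fit was run on simulated data in which each gene varied on its own. The members moved together, which that simulation does not cover.

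The members, lists and named genes were chosen with earlier results of these data known. Named were the called members with the largest changes (at most 8 each way, or the 5 smallest p), the 5 highest and 5 lowest in control, the 5 least like the rest, the untested, a fixed set of roles and paralogs, and at most 4 genes per other list (3 per marker list). Rpl10a, Rpl18, Rps28, Rps29, Rpl26 and Rpl30, and Eef1a1, Eef2, Tpt1, Naca, Myc, Mtor and Mdm2, were singled out after their values were seen. A few genes are counted but not reported by name here. Same-numbered polyP and mutSOD1-ACM libraries deviated together (correlation 0.69 to 0.76 in each of 5 pairs), which the labels do not explain, and each of these pairs lies within 1 library set. Numbers were taken to pair libraries where every pair was over 0.1. The other comparisons missed this through 1 pair each, at 0.07 (polyP and control, replicate 2), 0.08 (mutSOD1-ACM and control, replicate 2), -0.69 and -0.72 (replicate 3 of wtSOD1-ACM with control and with mutSOD1-ACM, which lie in different sets), while their other pairs were at 0.27 to 0.79.

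Alternatives were the pseudocount, the filter, 3 scalings, the groups in the fit, the library set, the replicate block and leaving out each library; scaling by the members' mean and the treatment-by-set term were added after seeing the data. Sequences are from RefSeq (GRCr8), matched by gene identifier, and their coordinates are of that build, not rn6.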

Additional observations from a re-analysis of the deposited data

Results flagged for a closer look

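Of 108 sets of values checked (25 members, the members' share and their mean, in each of 4 groups), 3 had a library standing apart from the rest of its group, and chance alone flags about 1 in 20. Rps28 was 446.95 FPKM in control replicate 5, with the next control library at 354.19 FPKM. Rpl22 was 226.85 FPKM in wtSOD1-ACM replicate 3, with the next at 208.95 FPKM. Rpl3l was 0.13 FPKM in control replicate 4 and at most 0.07 FPKM in the other control libraries, a level at which the gene was not tested.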

How the results depend on the processing

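For polyP against control, the members' count stayed between 74 and 80 of 80 under the pseudocount, the filter, median-of-ratios scaling, equal summed FPKM, the 2-group fit, the set term and each set alone. Over these settings 11.8 to 32.7% of all tested genes were called higher. Leaving out 1 library gave 74 (without control replicate 2) to 80 (without control replicate 5), with medians of 0.35 to 0.45. The median moved to 0.29 with equal summed FPKM. Quantile normalization gave 46 members and a median of 0.13, where 19.5% of all tested genes were called higher. Quantile normalization also turned the sign of Rplp1 (-0.04), Vim (-0.02) and Eef2 (-0.15). For polyP against mutSOD1-ACM, it gave 25 members, a median of 0.11, Rplp1 at -0.06 and Eef2 at -0.07. There, leaving out 1 library gave 59 (without polyP replicate 5) to 74 members and medians of 0.26 to 0.34, and set 1 alone gave 0 members. The causes were not tested. Less the members' mean, 6 members were higher and 6 lower against control and 2 higher and 1 lower against mutSOD1-ACM, with medians of 0 by construction. In that scaling 0.126% of all tested genes were called higher and 33.3% lower against mutSOD1-ACM.

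The conditioned-medium comparisons called 0 members on leaving out any library, with medians of -0.01 to 0.08 (wtSOD1-ACM against control), 0.07 to 0.16 (mutSOD1-ACM against control) and 0.05 to 0.09 (mutSOD1-ACM against wtSOD1-ACM). With the replicate number as a block, 80 of 80 members were higher in polyP against control (limma), Rps21 (adjusted p = 0.0151) and Rps27l (adjusted p = 0.01) included. In that fit 30.2% of all tested genes were called higher and 18% lower. Of the 5 pairs of same-numbered libraries, 1, at 0.07, missed the limit for pairing. Against mutSOD1-ACM the block gave 77 members, where 21.6% of all tested genes were called higher. It changed the calls of no named member other than Rpl18, Rpl22l1, Rps28 and Rps29. Values uncalled in both fits were not counted as reversed. Depth differed between libraries by 1.91 times and limits mainly Rpl3l and Rpl39l.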
